A study of Mus musculus with 26 samples.

Results

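A set of 10 genes of prostaglandin metabolism was followed in sorted mouse microglia: the cyclooxygenases Ptgs1 and Ptgs2, the synthases Ptges, Ptges2, Ptges3, Hpgds and Tbxas1, the breakdown enzyme Hpgd and the receptors Ptger2 and Ptger4. The genes were chosen by name for their place in the pathway, each being read from the array probe whose transcript accession belongs to it, and from the brightest such probe over all 26 arrays where a gene had several. Of the 10 genes, 9 were bright enough to be tested among 24738 genes in all. The exception was Ptger2, which stayed near background throughout.

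The study asked what repeated social defeat stress (R-SDS, repeated encounters with an aggressive mouse) does to gene expression in microglia of the nucleus accumbens (NAc) and the medial prefrontal cortex (mPFC), with and without the innate immune receptors Tlr2 and Tlr4. Samples were taken 1.5 h after the last session, and the naive mice had been moved between cages instead. There were 4 arrays of TLR-DKO NAc R-SDS, 3 of TLR-DKO NAc naive, 3 of WT NAc R-SDS, 3 of WT NAc naive, 3 of TLR-DKO mPFC R-SDS, 4 of TLR-DKO mPFC naive, 3 of WT mPFC R-SDS and 3 of WT mPFC naive microglia. Each array held RNA of cells pooled from 3 to 6 mice. All mice were C57BL/6 and carried CX3CR1EGFP/+, which marks microglia with EGFP and also any other cell in which the CX3CR1 promoter is active, so the WT mice carried this allele too. The TLR-DKO mice lack both Tlr2 and Tlr4. By the labels, TLR-DKO mice were resilient to R-SDS and WT mice susceptible, so behavioural phenotype and genotype cannot be told apart after stress. Ages are not given in the sources used here.

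Prostaglandins are made from arachidonic acid that phospholipases release from membranes. The cyclooxygenases convert it to the unstable intermediate PGH2, and terminal synthases turn PGH2 into PGE2, PGD2 or thromboxane, which act on G-protein-coupled receptors until 15-hydroxyprostaglandin dehydrogenase (Hpgd) oxidises and inactivates the prostaglandins. In the brain, microglia are known for constitutive Ptgs1 and for Hpgds, while Ptgs2 is induced by inflammatory stimuli and, in neurons, by synaptic activity.

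The stretches around the transcription starts of Ptgs1, Ptgs2 and Hpgd are given because these are the less variable cyclooxygenase, the more variable cyclooxygenase and the breakdown enzyme whose levels are described at most length. The sequences are RefSeq's for build GRCm38.p6, from 250 bases before to 50 bases after the annotated start, on the plus strand at chr2:36230176-36230475 for Ptgs1, chr1:150099781-150100080 for Ptgs2 and chr8:56294302-56294601 for Hpgd. Capitals mark matches to 5 motifs searched on both strands: the cAMP response element part TGACGT, the AP-1 site TGANTCA, the E-box CACGTG, the NF-kappaB part GGGACTT and the TATA box TATAAA.
Ptgs1: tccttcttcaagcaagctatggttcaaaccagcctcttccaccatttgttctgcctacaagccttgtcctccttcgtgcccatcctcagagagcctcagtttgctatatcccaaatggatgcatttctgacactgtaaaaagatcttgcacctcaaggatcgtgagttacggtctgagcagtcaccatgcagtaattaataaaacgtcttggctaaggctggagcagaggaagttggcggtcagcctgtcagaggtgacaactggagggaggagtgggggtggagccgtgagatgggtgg
Ptgs2: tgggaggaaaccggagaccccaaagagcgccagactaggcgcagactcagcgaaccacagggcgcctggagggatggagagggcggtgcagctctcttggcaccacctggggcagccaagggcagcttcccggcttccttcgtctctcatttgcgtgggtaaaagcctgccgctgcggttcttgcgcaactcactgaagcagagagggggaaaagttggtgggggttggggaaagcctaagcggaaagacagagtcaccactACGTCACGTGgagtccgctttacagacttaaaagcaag
Hpgd: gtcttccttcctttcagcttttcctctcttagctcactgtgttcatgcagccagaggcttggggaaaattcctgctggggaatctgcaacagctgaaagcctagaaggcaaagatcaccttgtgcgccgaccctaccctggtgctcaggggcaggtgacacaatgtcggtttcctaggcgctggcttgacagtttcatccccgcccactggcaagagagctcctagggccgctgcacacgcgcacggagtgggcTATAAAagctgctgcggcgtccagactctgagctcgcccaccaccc
Counted from 1 at the start, the Ptgs2 stretch held TGACGT on the reverse strand at positions 13 to 18, overlapping an E-box at 17 to 22, and the Hpgd stretch held TATAAA at 5 to 10. The Ptgs1 stretch held none of the 5. Among 32851 RefSeq promoters of this length, TGACGT was found in 7.51%, TGANTCA in 7.81%, CACGTG in 7.15%, GGGACTT in 5.44% and TATAAA in 13.6%. All 10 genes matched a promoter: Ptges2 held an E-box at -77 to -72, Tbxas1 an AP-1 site at -61 to -55 and TATAAA on both strands between -13 and -6, and 6 genes, Ptgs1 among them, held no match. These are matches of letters only.

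Levels are log2 of the processed spot signal minus the array's own 75th percentile, so 0 is the 75th percentile of that array, and levels of different genes are not set against each other because probes differ in brightness. That percentile lay between 80.7 and 340.5 signal units, and between 49.97% and 71.0% of spots were well above background. All 12 microglial markers examined were well above background on all 26 arrays. Tlr2 was well above background on 0 of 14 TLR-DKO arrays and 12 of 12 WT arrays, whereas Tlr4 was detected on all 26. Where the Tlr4 probe lies relative to the deletion is not given in the sources used here, so Tlr4 does not check the labels. Replicate 3 of WT mPFC R-SDS and replicate 1 of TLR-DKO mPFC naive correlated less well with the other arrays (mean r 0.793 and 0.826) than the rest did (0.854 to 0.896), and values without them are given for the results they move most. The arrays lay on 4 slides, slides 1 and 2 with mPFC samples and slides 3 and 4 with NAc samples, and slides 1 and 3 were scanned on the first day and slides 2 and 4 on the second.

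No prostaglandin gene passed an adjusted p of 0.05 in any of the 13 comparisons made with limma across all genes. Over all 24738 genes the R-SDS minus naive comparison called 0.00808% in TLR-DKO NAc, 0% in WT NAc, 0% in TLR-DKO mPFC, 0.00808% in WT mPFC and 0% for the average of these 4, so 0 of 9 was the count to be read against a background near 0. The TLR-DKO minus WT comparison called 0.00808% in R-SDS NAc, 0.0121% in naive NAc, 0.0121% in R-SDS mPFC, 0.0121% in naive mPFC and 0.0202% on average. The NAc minus mPFC comparison and both interactions called 0%. At an unadjusted p under 0.05 lay 1 of 9 in each of 4 comparisons: Ptgs2 for stress in WT mPFC (5.9% of all genes), Hpgd for the stress average (5.47%), Hpgds for the genotype average (8.23%) and Ptger4 for the interaction in NAc (2.52%), which rests on signals near background. The count was 0 of 9 in the other 9 comparisons, where the share of all genes was 3.04% for stress in TLR-DKO NAc, 2.93% in WT NAc and 5.07% in TLR-DKO mPFC, 4.03% for genotype in R-SDS NAc, 3.3% in naive NAc, 5.84% in R-SDS mPFC and 5.69% in naive mPFC, 5.74% for region and 6.09% for the interaction in mPFC. The differences that follow are therefore measured values that did not pass the test unless a sentence says otherwise, and a p that misses the threshold does not show that levels were alike. The study's design names independent experiments, but no label ties an array to any of them. Whether the slides and scan days follow those experiments is therefore not known. Nothing ties the arrays of a group to separate days of the animal work or to cages. The p-values measure the spread between pooled samples. In sorted bulk samples, fewer cells of a type and less RNA per cell cannot be told apart.

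**Figure D1:**
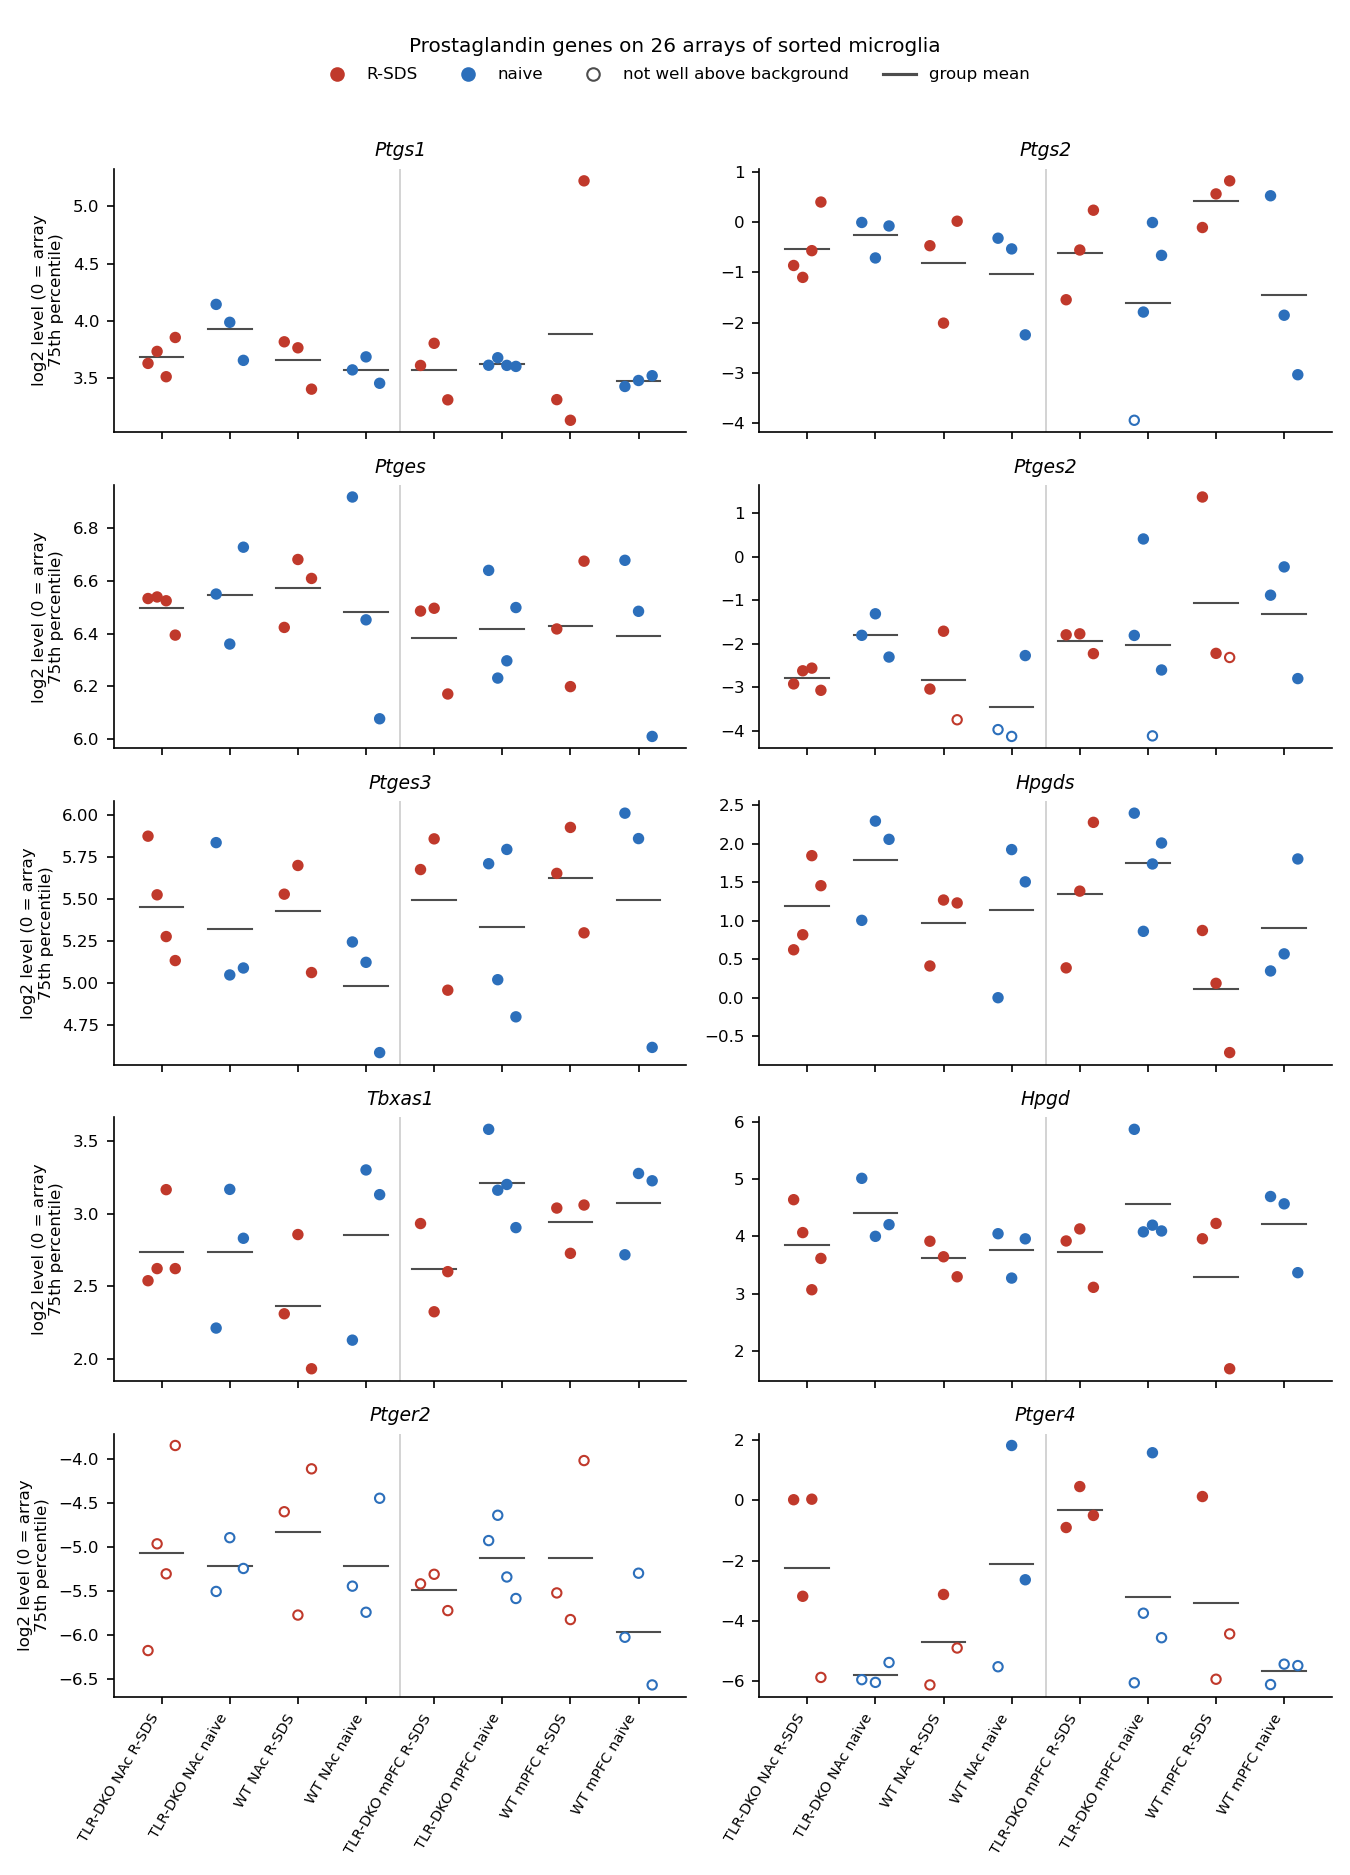
Level of each of the 10 prostaglandin genes on each of the 26 arrays, in log2 units above or below that array's 75th percentile (vertical axes differ between panels). Red points are R-SDS arrays and blue points naive arrays, open points were not well above background, and bars are group means. Ptges lay between 6.01 and 6.92 on all arrays, while Ptger4 ran from -6.13 to 1.83.

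Ptgs1, the constitutive cyclooxygenase, was well above background on all 26 arrays and lay between 3.14 and 4.15 on 25 of them. The remaining array, replicate 3 of WT mPFC R-SDS, gave 5.22 and is 1 of the 2 arrays that stand apart. In WT mPFC, Ptgs1 measured 3.32, 3.14 and 5.22 after R-SDS, against 3.43, 3.48 and 3.52 in naive mice, so 2 stressed arrays lay below all naive ones and 1 above. The R-SDS minus naive difference there was 0.41 ± 0.37 (SE, 95% interval -0.36 to 1.18, limma adjusted p = 0.872), and it turned to -0.25 without the 2 arrays. Averaged over the 4 genotype and region pairs, the stress difference of Ptgs1 was 0.05 ± 0.18 (95% interval -0.32 to 0.43, limma adjusted p = 0.989). It too turned negative, to -0.12, without those 2 arrays. In naive mPFC every TLR-DKO array (3.60 to 3.68) lay above every WT array (3.43 to 3.52). The same was true of 3.12% of all genes, and the difference was 0.15 ± 0.35 (SE), with the genotype average at 0.05 ± 0.18 (SE), or 0.22 without the 2 arrays. With slide as a block the naive mPFC difference was -0.02, although within slides it was 0.16 on slide 1 and 0.11 on slide 2. The list of 12 microglial markers had r = 0.60 with Ptgs1 over 26 arrays and r = -0.05 over the 24 that do not stand apart. A list of neuronal markers had r = 0.13 over 26 arrays and r = -0.67 over those 24. The latter was the largest in size of all marker lists over the 24. The part of either list in the Ptgs1 level was not tested. Group means lay between 3.93 in TLR-DKO NAc naive and 3.48 in WT mPFC naive, and of the 7 steps between neighbouring groups in that order only the lowest, WT NAc naive over WT mPFC naive, exceeded the pooled SD of its groups.

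Ptgs2, the inducible cyclooxygenase, was well above background on 25 of 26 arrays and varied far more than Ptgs1. Its residual SD within groups was 1.15, a value that 73.1% of tested genes stayed below, against 0.42 and 13.5% for Ptgs1. In WT mPFC, Ptgs2 measured -0.10, 0.57 and 0.83 after R-SDS, against 0.53, -1.85 and -3.04 in naive mice. Of the 3 stressed arrays, 2 lay above all naive arrays, and the groups overlapped through naive replicate 1. This difference of 1.88 ± 0.89 (SE) corresponds to 3.69-fold (95% interval 1.01 to 13.4-fold) and had a limma p of 0.0479, which became 0.830 after adjustment. It depended on the naive arrays: it was 1.09 without naive replicate 3 and 2.87 without naive replicate 1. Without the 2 arrays that stand apart it was 1.68. Within slides it was 0.89 on slide 1, with 2 stressed and 2 naive arrays, and 3.86 on slide 2, with 1 of each. The slide block gave 1.88 ± 0.91 (SE), with a limma p of 0.0528 that became 0.630 after adjustment.

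In the other pairs the Ptgs2 differences were smaller. After R-SDS, TLR-DKO mPFC arrays gave -1.54, -0.55 and 0.24, against -3.94, -1.79, -0.0045 and -0.66 in naive mice, where the -3.94 was not well above background. The corresponding WT NAc levels were -0.47, -2.01 and 0.02 with stress, against -0.32, -0.53 and -2.24 without, and the TLR-DKO NAc levels were -0.86, -1.10, -0.56 and 0.40, against -0.0032, -0.71 and -0.07. All 3 pairs overlapped. The differences were -0.27 ± 0.84 in TLR-DKO NAc, 0.21 ± 0.89 in WT NAc and 0.98 ± 0.84 in TLR-DKO mPFC (SE). In TLR-DKO mPFC the value dropped to 0.20 without the 2 arrays, 1 of which is the naive array at -3.94. The stress average of Ptgs2 was 0.70 ± 0.43 (95% interval -0.20 to 1.60, limma adjusted p = 0.943). It was 0.81 ± 0.45 with slide as a block (limma adjusted p = 0.772), 0.46 without the 2 arrays, and above 0 in 6 of 8 comparisons made within a slide. Whether stress moved Ptgs2 differently in the 2 genotypes was tested in mPFC as TLR-DKO minus WT of the stress differences, which gave -0.90 ± 1.23 (SE, limma adjusted p = 0.908). This value was -1.48 without the 2 arrays, and -0.11 without WT naive replicate 3 and -1.89 without WT naive replicate 1. The genotype average of Ptgs2 was -0.03 ± 0.43 (SE), and 0.21 without the 2 arrays.

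Because Ptgs2 is also made by active neurons, a list of 9 neuronal markers was read beside it. All 9 were well above background on at least 1 array and 3 of them on all 26, and their summed scaled signal was 48.6 to 125.9 in WT mPFC R-SDS and 33.0 to 97.7 in WT mPFC naive. The mean log2 level of the list was -1.59, -0.49 and -0.31 in WT mPFC R-SDS, against -1.64, -2.40 and -1.51 in WT mPFC naive, so that 2 of 3 stressed arrays lay above all naive arrays, as for Ptgs2. Across the 26 arrays the mean log2 level of the neuronal list and Ptgs2 had r = 0.22, or r = 0.11 over the 24 arrays that do not stand apart, points that share arrays and slides. The lists of mast cell (0.34, or 0.25 over 24), astrocyte (0.33, or 0.17) and mural cell markers (0.29, or 0.24) had higher r with Ptgs2 than the neuronal list. The remaining lists had lower r. The part of neuronal RNA, or of RNA of those other cells, in the Ptgs2 level was not tested.

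**Figure D2:**
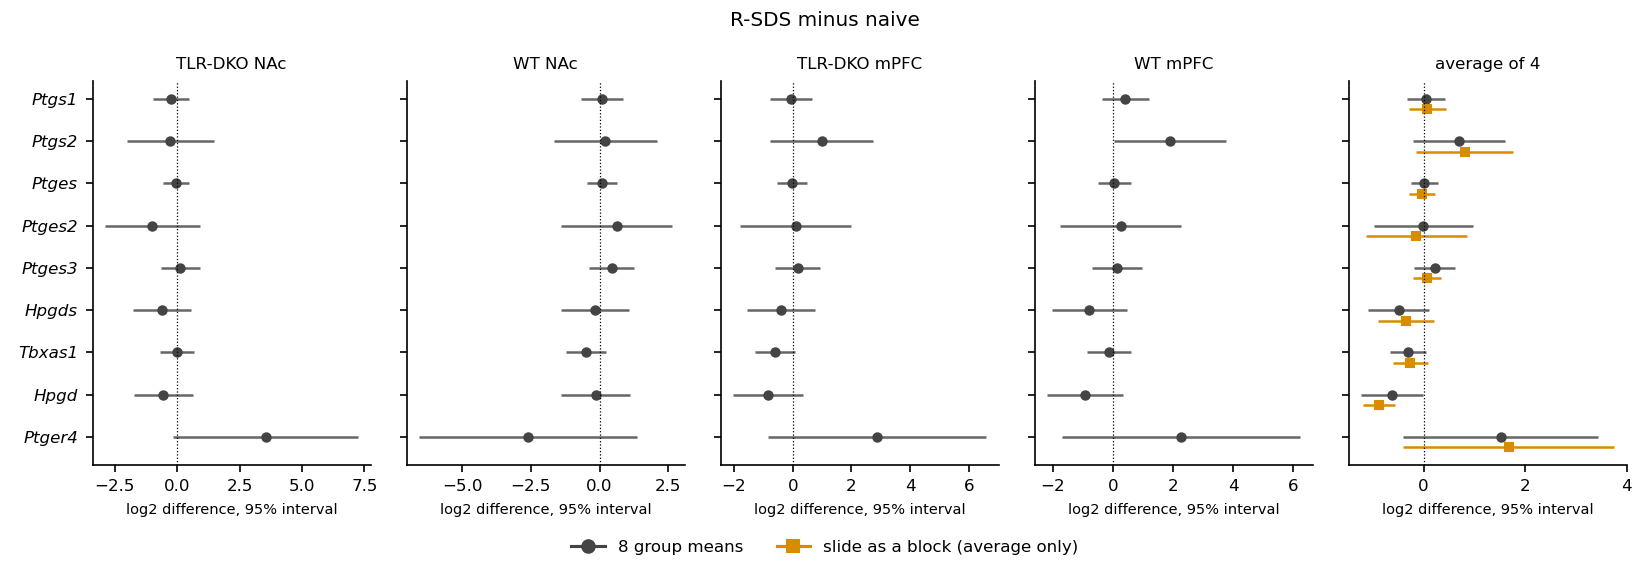
R-SDS minus naive log2 difference of each tested prostaglandin gene in the 4 genotype and region pairs and averaged over them, with 95% intervals from limma (horizontal axes differ between panels). Grey points are from the fit of 8 group means and orange squares, for the average only, from the fit with slide as a block. The Hpgd average moved from -0.62 to -0.87 with the block, and its interval narrowed.

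Hpgd, the dehydrogenase that starts the breakdown of prostaglandins, gave the lowest p of these genes for stress once slide was taken into account. It was well above background on all 26 arrays. In TLR-DKO mPFC it measured 3.92, 4.13 and 3.11 after R-SDS, against 5.87, 4.08, 4.20 and 4.09 in naive mice. The WT mPFC levels were 3.96, 4.23 and 1.69 after R-SDS, against 4.70, 4.57 and 3.37 in naive mice. Each mPFC pair overlapped, with 2 of 3 stressed TLR-DKO arrays and 1 of 3 stressed WT arrays below all naive arrays. In TLR-DKO NAc, Hpgd measured 4.64, 4.07, 3.07 and 3.61 with R-SDS, against 5.01, 4.00 and 4.21 without. The WT NAc levels were 3.92, 3.64 and 3.29 with R-SDS, against 4.05, 3.27 and 3.96 without. Each NAc pair overlapped too, with 2 of 4 stressed TLR-DKO arrays and 0 of 3 stressed WT arrays below all naive arrays. The mean differences were -0.56 ± 0.57 in TLR-DKO NAc, -0.14 ± 0.61 in WT NAc, -0.84 ± 0.57 in TLR-DKO mPFC and -0.92 ± 0.61 in WT mPFC (SE). All 4 lay below 0, as for 5.74% of all genes. Both mPFC values moved when an array that stands apart was left out: without naive replicate 1 the TLR-DKO mPFC difference was -0.40, and without R-SDS replicate 3 the WT mPFC difference was -0.12. Each of these arrays is the only one of its group on its slide, so leaving it out also shifts the balance of slides. Within the slides that do not hold them, the difference was -1.01 in TLR-DKO mPFC (slide 2) and -0.54 in WT mPFC (slide 1). The stress average was -0.62 ± 0.29 (95% interval -1.23 to -0.0026), or 0.653 of the naive level, with a limma p of 0.0491 that became 0.911 after adjustment.

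Part of the spread in Hpgd followed the slide. Hpgd was lower on the slides of the second day in all 8 groups, by 1.15 on average (a difference of -1.15). On slide 1 the stressed mPFC arrays lay between 3.92 and 4.23, against 4.57 to 5.87 for the naive ones, and on slide 2 between 1.69 and 3.11, against 3.37 to 4.20. On both mPFC slides every stressed array was thus below every naive array, as was the case for 47 of 24738 genes (0.19%). On the NAc slides the ranges overlapped, with 3.64 to 4.64 after R-SDS against 4.05 to 5.01 in naive mice on slide 3, and 3.07 to 3.61 after R-SDS against 3.27 to 4.21 in naive mice on slide 4. Within a slide and genotype the stress difference was below 0 in 8 of 8 comparisons, from -1.85 to -0.27, as it was for 87 genes (0.352%). The comparisons with the most negative values, -1.85 for TLR-DKO on slide 1 and -1.68 for WT on slide 2, each hold 1 of the 2 arrays that stand apart, and the other 6 ran from -1.01 to -0.27.

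With slide as a fixed block, the Hpgd stress average was -0.87 ± 0.15 (SE, 95% interval -1.19 to -0.56), or 0.546 of the naive level. Its limma p was 1.55e-05, the 7th smallest of 24738, and its adjusted p of 0.0547 missed the threshold, which 3 genes (0.0121%) passed in that fit. Per pair, the block gave -0.68 ± 0.28 in TLR-DKO NAc, -0.39 ± 0.31 in WT NAc, -1.50 ± 0.30 in TLR-DKO mPFC and -0.92 ± 0.30 in WT mPFC (SE), with limma adjusted p of 1.00, 1.00, 0.276 and 0.561. Without the 2 arrays that stand apart the average was -0.31 with no block and -0.67 ± 0.15 (SE) with it (limma adjusted p = 0.198, the 33rd smallest p). The second Hpgd probe had r = 0.74 with the first over 26 arrays and a stress average of -0.53. The mean of both probes gave -0.76 ± 0.15 (SE) with the block (limma adjusted p = 0.0992). The stress differences of the genotypes differed by -0.58 ± 0.42 in mPFC and -0.29 ± 0.41 in NAc with the block (TLR-DKO minus WT, SE, limma adjusted p = 0.760 and 1.00), which does not show a difference between genotypes.

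**Figure D3:**
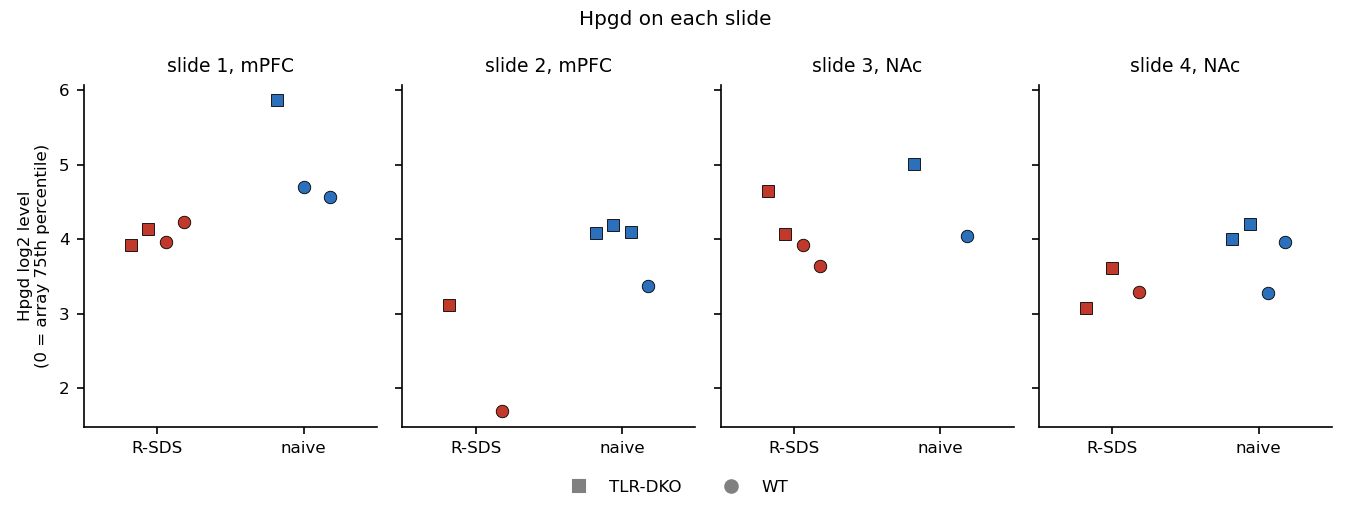
Hpgd level on each array, in log2 units above the 75th percentile, by slide and condition. Squares are TLR-DKO and circles WT. On slides 1 and 2 all R-SDS arrays (3.92 to 4.23 and 1.69 to 3.11) lie below all naive arrays (4.57 to 5.87 and 3.37 to 4.20), and on slides 3 and 4 the ranges overlap.

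Perivascular macrophages also express CX3CR1, and their markers were read beside Hpgd. Of the 8 markers listed, all were well above background on some array and 0 on all arrays. Their summed scaled signal was 0.265 to 8.81 in TLR-DKO NAc R-SDS against 0.393 to 6.41 in naive, and 1.83 to 6.89 in WT NAc R-SDS against 0.283 to 3.8 in naive. In mPFC it was 9.004 to 12.3 in TLR-DKO R-SDS against 17.7 to 64.1 in naive, and 11.97 to 54.1 in WT R-SDS against 6.41 to 17.7 in naive. By this sum the list was lower with stress in TLR-DKO mPFC and overlapped in the other pairs. By its mean log2 level the TLR-DKO mPFC arrays overlapped too, with -0.34, -0.66 and -1.92 after R-SDS against 1.30, -0.49, 1.65 and -1.18 in naive mice. Over the 26 arrays that mean level had r = 0.41 with Hpgd (0.37 over 24 arrays), and the microglial list had r = -0.45 (-0.11 over 24 arrays). Their part in the Hpgd differences was not tested.

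Mean Hpgd was higher in TLR-DKO than in WT microglia in every pair, without passing the test. The TLR-DKO minus WT difference was above 0 in 4 of 4 region and condition pairs, as for 4.69% of all genes, and in 7 of 8 comparisons within a slide. Its average was 0.41 ± 0.29 (SE, limma adjusted p = 0.736), or 0.61 ± 0.15 (SE) with slide as a block (limma adjusted p = 0.227, in a fit that called 0.0323% of genes) and 0.10 without the 2 arrays. Between regions Hpgd differed by 0.02 ± 0.33 (NAc minus mPFC, SE, limma adjusted p = 0.995). The group means ran from 3.29 (WT mPFC R-SDS) to 4.56 (TLR-DKO mPFC naive), and none of the 7 steps between neighbouring groups exceeded the pooled SD of its groups.

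Hpgds, the hematopoietic synthase that makes PGD2, was well above background on all 26 arrays, between -0.71 and 2.40. In mPFC after R-SDS it measured 0.39, 1.39 and 2.28 in TLR-DKO, against 0.87, 0.19 and -0.71 in WT microglia. In naive mPFC it measured 2.40, 0.86, 1.74 and 2.01 in TLR-DKO, against 0.35, 0.57 and 1.80 in WT microglia. In each mPFC pair 2 TLR-DKO arrays lay above all WT arrays. The NAc levels after R-SDS were 0.62, 0.82, 1.85 and 1.46 in TLR-DKO, against 0.41, 1.27 and 1.23 in WT. The naive NAc levels were 1.01, 2.30 and 2.06 in TLR-DKO, against 0.0013, 1.93 and 1.51 in WT. Again 2 TLR-DKO arrays of each pair exceeded all WT arrays, and the groups overlapped. The TLR-DKO minus WT differences were 0.21 ± 0.56 in R-SDS NAc, 0.64 ± 0.60 in naive NAc, 1.23 ± 0.60 in R-SDS mPFC and 0.85 ± 0.56 in naive mPFC (SE). All 4 lay above 0, as for 4.69% of all genes. The mPFC values were 0.82 after R-SDS and 0.63 in naive mice without the 2 arrays. The average of the 4 was 0.73 ± 0.29 (SE, 95% interval 0.13 to 1.34), or 1.66-fold, with a limma p of 0.0195 that became 0.512 after adjustment. It was 0.68 ± 0.26 (SE) with slide as a block (limma adjusted p = 0.408) and 0.58 without the 2 arrays. With both changes together it was 0.19, and the naive mPFC difference was then -0.28.

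The stress difference of Hpgds was below 0 in all 4 pairs, as for 5.74% of all genes: -0.60 ± 0.56 in TLR-DKO NAc, -0.17 ± 0.60 in WT NAc, -0.40 ± 0.56 in TLR-DKO mPFC and -0.79 ± 0.60 in WT mPFC (SE). The mPFC values were -0.19 in TLR-DKO and -0.38 in WT without the 2 arrays. Within slides it was below 0 in 5 of 8 comparisons, with -2.52 the most negative, which sets 1 stressed array, the WT mPFC array that stands apart, against 1 naive array. The average was -0.49 ± 0.29 (SE, limma adjusted p = 0.937), -0.35 ± 0.26 (SE) with slide as a block (limma adjusted p = 0.858), and 0.14 with the block and without the 2 arrays, so that its direction was not settled. Ranked by mean, the 8 groups ran from 0.12 in WT mPFC R-SDS to 1.79 in TLR-DKO NAc naive. Only the step between WT mPFC R-SDS and WT mPFC naive exceeded the pooled SD. The list of 7 astrocyte markers had r = -0.51 with Hpgds over 26 arrays (-0.34 over 24), and the list of 8 perivascular macrophage markers r = -0.23 (-0.44 over 24). The part of other cells in the Hpgds level was not tested.

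**Figure D4:**
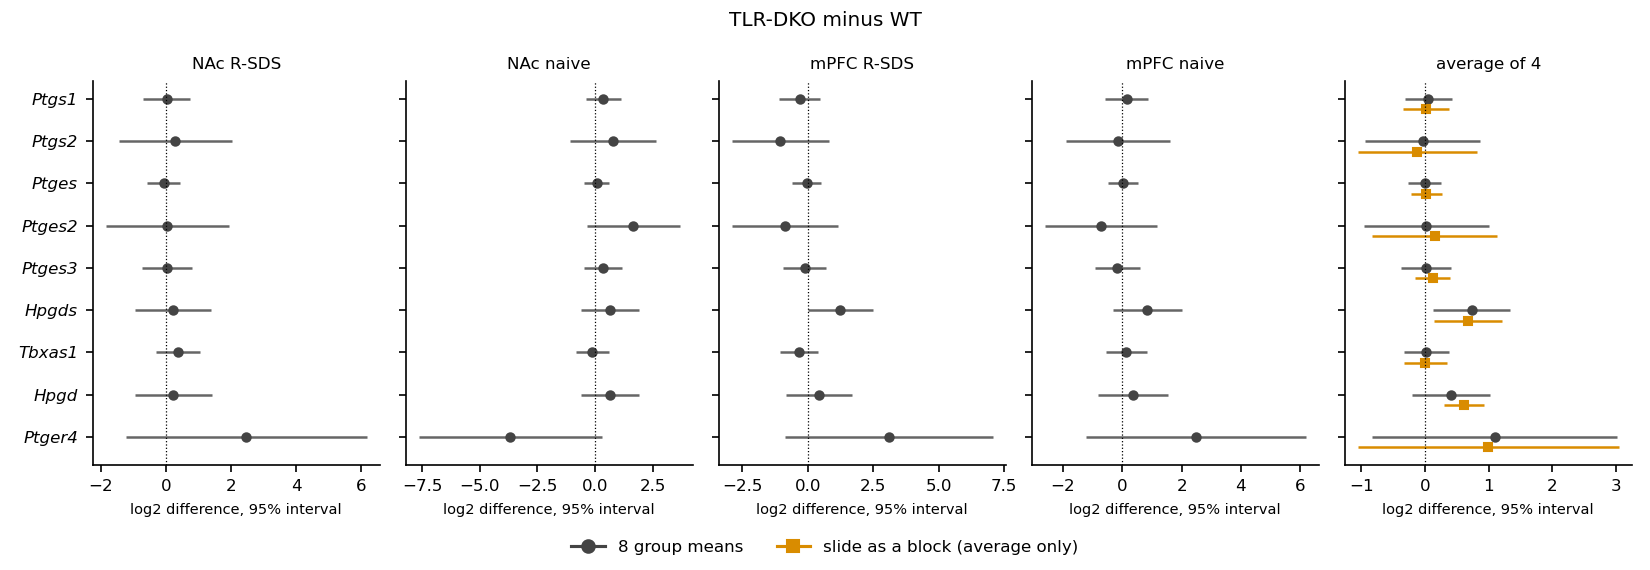
TLR-DKO minus WT log2 difference of each tested prostaglandin gene in the 4 region and condition pairs and averaged over them, with 95% intervals from limma (horizontal axes differ between panels). Grey points are from the fit of 8 group means and orange squares, for the average only, from the fit with slide as a block. Averages lay above 0 for 7 of 9 genes. The largest were those of Ptger4 (1.09, from signals near background), Hpgds (0.73) and Hpgd (0.41). The intervals of Ptges were the narrowest.

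The PGE2 synthases differed widely in spread. Ptges, the microsomal synthase that is inducible by inflammatory stimuli, lay between 6.01 and 6.92 on all 26 arrays, and its residual SD of 0.24 was smaller than that of all but 0.578% of tested genes. Over the genes detected on all 26 arrays, 1.01% had a smaller SD. Its stress average was 0.01 ± 0.13 (95% interval -0.25 to 0.28), its genotype average -0.0076 ± 0.13 (95% interval -0.27 to 0.26) and its region average 0.13 ± 0.17 (95% interval -0.22 to 0.48), with limma adjusted p of 0.996, 0.992 and 0.944. The stress interval corresponds to 0.840 to 1.21-fold. A second Ptges probe had r = 0.05 with the first, a mean of -1.66 and a stress average of 0.22, so the small spread describes the brighter probe only.

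**Figure D5:**
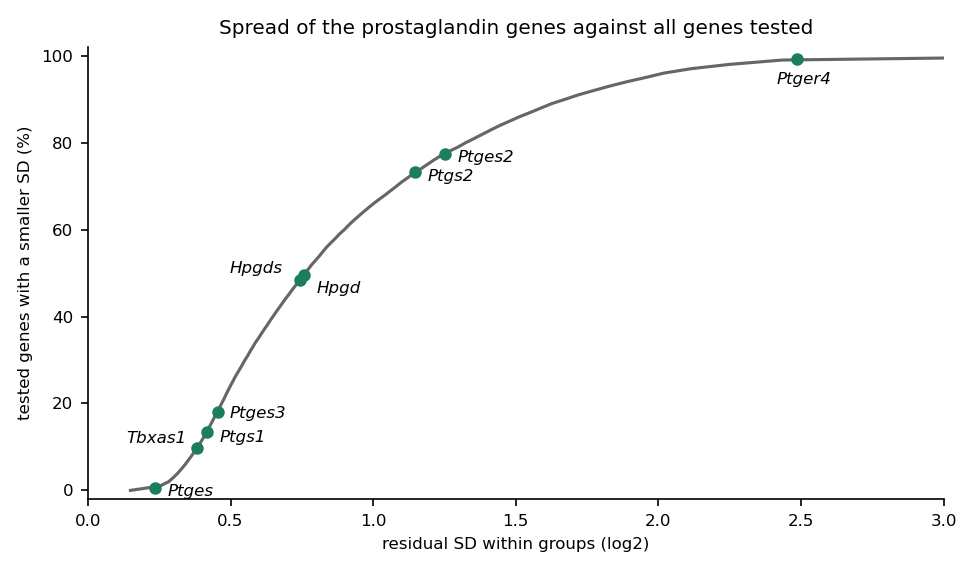
Residual SD within groups (log2, horizontal axis) of the 9 tested prostaglandin genes, on the curve of the percentage of all 24738 tested genes with a smaller SD (vertical axis). Ptges (0.24) lies near the bottom of the curve and Ptger4 (2.49) near its top.

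Ptges2, the membrane-associated synthase type expressed constitutively, was dim: 21 of 26 arrays were well above background, 7 of 7 TLR-DKO R-SDS arrays, 6 of 7 TLR-DKO naive arrays, and 4 of 6 WT arrays in either condition. In TLR-DKO NAc it measured -2.92, -2.62, -2.56 and -3.07 after R-SDS, against -1.80, -1.31 and -2.30 in naive mice. All 4 stressed arrays lay below all 3 naive arrays, as was so for 2.11% of genes, with a difference of -0.99 ± 0.91 (SE, limma adjusted p = 1.00). The stress average of Ptges2 was -0.0026 ± 0.47 (95% interval -0.98 to 0.98, limma adjusted p = 1.00), and 0.17 without the 2 arrays. Its NAc minus mPFC difference was -1.10 ± 0.65 (95% interval -2.45 to 0.24, limma adjusted p = 0.879) and stayed below 0 in every setting tried, from -1.28 to -0.55.

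Ptges3, the cytosolic synthase that also serves as the Hsp90 co-chaperone p23, lay between 4.59 and 6.01 on all 26 arrays. Its stress average was 0.22 ± 0.19 (SE, limma adjusted p = 0.979), with each of the 4 pairs above 0, as for 9.16% of all genes, and 5 of 8 comparisons within a slide. The slide block gave 0.07 ± 0.13 (SE, limma adjusted p = 0.960). Like Hpgd, Ptges3 was lower on the second scan day in all 8 groups, by 0.66 on average (a difference of -0.66). Its levels and those of Hpgd had r = 0.47 over 26 arrays and r = 0.69 once group means were taken off, again over arrays that share slides. The latter was the largest in size among all pairs of tested members. The 3 other Ptges3 probes had r of 0.65, 0.28 and -0.15 with the brightest, and stress averages of 0.29, -0.07 and -0.02.

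Tbxas1, which turns PGH2 into thromboxane, lay between 1.93 and 3.58 on all 26 arrays. After R-SDS it measured 2.93, 2.32 and 2.60 in TLR-DKO mPFC, against 3.58, 3.16, 3.20 and 2.90 in naive mice, with 2 stressed arrays below all naive ones. The stress differences were 0.00 ± 0.33 in TLR-DKO NAc, -0.49 ± 0.35 in WT NAc, -0.59 ± 0.33 in TLR-DKO mPFC and -0.13 ± 0.35 in WT mPFC (SE). The stress average of -0.30 ± 0.17 (95% interval -0.65 to 0.05, limma adjusted p = 0.926) was below 0 in 6 of 8 comparisons within a slide and stayed below 0 in every setting tried. The slide block gave -0.26 ± 0.16 (SE, limma adjusted p = 0.806). Tbxas1 and Ptgs2 had r = -0.51 over the 26 arrays, the largest in size among all pairs of tested members and named for that reason.

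Of the receptors for PGE2 that raise cyclic AMP, Ptger2 was well above background on 0 of 26 arrays, with signals from -6.57 to -3.84 that have no order at that brightness. Ptger4 was well above background on 11 arrays. In TLR-DKO mPFC it measured -0.90, 0.46 and -0.50 after R-SDS, all well above background, against -6.06, -3.75, 1.59 and -4.56 in naive mice, where the 1.59 alone was well above background. In TLR-DKO NAc it measured 0.02, -3.18, 0.04 and -5.88 after R-SDS, the last not well above background, against -5.95, -6.04 and -5.38 in naive mice, none well above background. Ptger4 was thus well above background on 6 of 7 TLR-DKO R-SDS arrays and 1 of 7 TLR-DKO naive arrays. The share of all genes with such a split is not given. Only the TLR-DKO R-SDS groups had the 3 detected arrays that the filter on dim probes asks for, so Ptger4 was tested through the groups in which it is high, and this split is a description.

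The WT arrays were detected equally often in both conditions. The WT NAc arrays gave -6.13, -3.12 and -4.90 after R-SDS, against -5.52, 1.83 and -2.63 in naive mice, and the WT mPFC arrays 0.13, -5.94 and -4.43, against -6.12, -5.44 and -5.49. Of these, 2 of 6 R-SDS arrays (-3.12 and 0.13) and 2 of 6 naive arrays (1.83 and -2.63) were well above background. Since a signal not well above background is only a bound, the TLR-DKO NAc stress difference was also read against a background limit, as 2.45-fold higher after R-SDS (fitted limma adjusted p = 1.00). This value sets the stressed group's mean against the higher of the naive probe's own signal and the dimmest signal well above background on each naive array, and holds no sampling error. Of the 4 stressed arrays 3 measured the gene. The stressed mean also holds the remaining signal of -5.88, itself not well above background, so 2.45-fold is not a lower bound. It is a description, since Ptger4 was tested through the groups in which it is high. The fitted stress differences were 3.54 ± 1.78 in TLR-DKO NAc, -2.61 ± 1.90 in WT NAc, 2.88 ± 1.78 in TLR-DKO mPFC and 2.27 ± 1.90 in WT mPFC (SE), and their sizes rest on signals near background. The fitted TLR-DKO minus WT contrast of the stress differences was 6.15 ± 2.61 in NAc and 0.62 ± 2.61 in mPFC (SE, limma adjusted p = 1.00 and 0.974). The NAc value is built on a TLR-DKO naive group in which 0 of 3 arrays measured the gene, and was 4.18 without WT naive replicate 2. The residual SD of Ptger4, 2.49, exceeded that of 99.2% of tested genes.

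Markers of mural cells, the list with the highest r with Ptger4 (0.40 over 26 arrays, 0.39 over 24), were read beside it. Of the 4 markers 1 was well above background on all arrays. Their summed scaled signal was 0.256 to 1.53 in TLR-DKO NAc R-SDS against 0.189 to 0.325 in naive, and 0.212 to 8.77 in TLR-DKO mPFC R-SDS against 0.346 to 0.870 in naive. In WT it was 0.311 to 1.40 in NAc R-SDS against 0.241 to 0.646 in naive, and 0.422 to 6.27 in mPFC R-SDS against 0.260 to 0.374 in naive. The arrays with the highest sums, TLR-DKO mPFC R-SDS replicate 2 (8.77) and WT mPFC R-SDS replicate 1 (6.27), were both among those with Ptger4 well above background (0.46 and 0.13). The brightest Ptger4 signals, 1.83 and 1.59, lay on WT NAc naive replicate 2 and TLR-DKO mPFC naive replicate 3. Their sums, 0.646 and 0.870, were the highest among the naive arrays, though far below 8.77 and 6.27. Other arrays went the other way. The highest sum in NAc, 1.53 on TLR-DKO NAc R-SDS replicate 4, went with a Ptger4 signal not well above background (-5.88). On TLR-DKO mPFC R-SDS replicate 3 the sum was 0.212, with Ptger4 well above background (-0.50). The part of mural cells in the Ptger4 signal was not tested.

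Across all members the stress averages had a median of 0.01, against 0.04 over all genes, with 5 of 9 above 0. The genotype averages had a median of 0.02, against -0.09 over all genes, with 7 of 9 above 0, and the region averages a median of 0.02, against -0.06, with 5 of 9 above 0. The share of all genes above 0 is not given, so these counts are descriptions only. In WT mPFC the median of all genes itself was 0.17 for stress and in R-SDS mPFC -0.24 for genotype, against 0.02 and -0.07 after quantile normalization, so small differences there are to be read relative to these shifts.

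Among 7847 genes named through RefSeq and detected on all 26 arrays, the genes whose levels were most like those of each member were picked by Pearson r over the 26 arrays, which share slides and the 2 arrays that stand apart. For Hpgd they were Vdac1 (r = 0.82), Ccl6 (0.80) and Bub3 (0.80), and for Ptgs1 Rcn3 (0.81), Mvk (0.79) and Adgrg1 (0.78). Ptges was closest to Usp17la (0.88), H2-Q4 (0.86) and Ap5z1 (0.85), and Ptges3 to Rps27 (0.87), Barx2 (0.87) and Tpgs1 (0.87). After centring on slides, the Ptges3 values were 0.62, 0.56 and 0.53, while those of Hpgd were 0.74, 0.76 and 0.72. Hpgds was closest to Nagpa (0.78), Snn (0.77) and H2-Q10 (0.76), and Tbxas1 to Tmsb10 (0.78), Tpst2 (0.78) and Nudt3 (0.75).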

How the data were processed

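RNA of EGFP-positive cells, 500 pg per sample and pooled from 3 to 6 mice, was amplified, labelled with Cy3 and hybridised to 1-colour Agilent arrays, per the labels' protocols. The deposited scanner files hold spot intensity from Agilent Feature Extraction 11.0.1.1, per the submitters' processing notes. The processed signal, which the scanner software had corrected for background per the file headers, was taken as log2 minus the array's 75th percentile. The deposited value table holds log2 values whose scale, centring and direction are unstated. Set against the scanner values it gave r = 1 on every array with offsets of 0.0065 to 0.062, and its column medians ran from -2.90 to -2.21, so it served as an alternative only. No column was left unmapped.

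Probes were named through transcript accessions in a RefSeq table (GRCm38.p6), which matched 28026 of 55681 probes, and the brightest probe stood for a gene. The filter kept genes whose probe exceeded background clearly (the scanner's own flag) on 3 or more arrays of some group. limma 3.58.1 in R 4.3.3 (lmFit, eBayes) fitted all 26 arrays as 8 group means, two-sided, with Benjamini-Hochberg adjustment over all genes and a threshold of 0.05. The region average took slide as a random block (consensus correlation 0.137), since each slide holds 1 region. Elsewhere slide as a fixed block was an alternative. Steps were tested on simulated data, and Python 3.11.15, pandas 2.3.3 and matplotlib 3.10.9 were used for the rest. The number of arrays limits the precision.

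All 10 member genes are described. Of 3 pathway lists, the 3 genes with the smallest p in each average are named. Members, lists and tests were chosen with earlier results of these data known. Same-numbered replicates did not deviate together in the stress and genotype comparisons. Of 24 pairs, 6 had a correlation over 0.1 (-0.14 to 0.22), and in 0 of 8 comparisons did every pair. The numbers were therefore not taken to pair samples in these comparisons. Same-numbered mPFC and NAc arrays were not checked in this way. The fits treat them as independent, which was not tested. Other background correction, normalization, filters, probe choice, blocks and left-out arrays were tried as alternatives. The fits with slide as a block that also left out the 2 arrays that stand apart, or averaged probes, were added after seeing the data.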

Additional observations from a re-analysis of the deposited data

Results flagged for a closer look

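In groups of 4 arrays, 4 values lay far from the others of their group by Dixon's test, which chance alone does in about 1 of 20 groups for any 1 gene. The series has 2 such groups, each read for several genes. Groups of 3 arrays are not in this list, so the Ptgs1 level of 5.22 in WT mPFC R-SDS, described above, is absent from it. Hpgd measured 5.87 on replicate 1 of TLR-DKO mPFC naive, the lone array of its group on slide 1 and 1 of the 2 arrays that stand apart, while the others of the group lay between 4.08 and 4.20. The Ptgs1 level of 3.68 on replicate 2 of TLR-DKO mPFC naive lay above 3.60 to 3.62 on the others. Ptges measured 6.39 on replicate 4 of TLR-DKO NAc R-SDS, below the others at 6.52 to 6.54, and Tbxas1 measured 3.17 on replicate 3 of that group, above the others at 2.54 to 2.62.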

How the results depend on the processing

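Counts of prostaglandin genes past the threshold stayed at 0 in 307 of 307 recomputed comparisons, and the lowest adjusted p of any member under any setting was 0.0547. Of 1383 alternative values of 48 differences, 1250 kept their direction and side of the threshold and 133 changed sign, 93 of them on leaving out 1 array, and the cause was not tested. The changes of sign were as follows. Without the 2 arrays that stand apart, Ptgs1 stress was -0.25 in WT mPFC and -0.12 on average, Ptgs2 genotype 0.21, Ptges stress -4.7e-05 and genotype 0.0044, Ptges2 stress 0.17 and genotype -0.15, Ptges3 genotype -0.055 and Hpgd region -0.080. With slide as a block and without those arrays, an alternative chosen after seeing the data, Ptgs1 stress was -0.31 in WT mPFC and -0.18 on average, Ptgs2 stress in TLR-DKO mPFC -0.16 and genotype 0.34, Ptges stress -0.13 and genotype 0.12, Ptges3 stress -0.044, Tbxas1 genotype -0.040, and Hpgds stress 0.080 in WT mPFC, 0.73 in TLR-DKO mPFC and 0.14 on average, with naive mPFC genotype at -0.28. With slide as a block, alone, with the mean of probes or without the 2 arrays, Hpgds stress in WT NAc was 0.17. Alone it gave Ptges stress -0.030 and genotype 0.021. With normexp, Ptgs1 stress was -0.017, Ptgs2 region -0.014, Ptges stress -0.036 and genotype 0.034, and Ptges2 stress 0.032 and genotype -0.14. With quantile normalization, Ptgs2 genotype was 0.00015, Ptges stress -0.070 and genotype 0.068, and Tbxas1 genotype -0.012. The mean of all probes gave Ptges region -0.052 and Ptges3 genotype -0.0055. Hpgd region was -0.038 with no slide block. With the replicate block it was -0.036, which was the one change of sign under that block, and Hpgd stress stayed at -0.62 and Ptgs2 stress in WT mPFC at 1.88. Leaving out 1 array, stress differences ran from -0.25 to 0.79 (Ptgs1, WT mPFC), -0.11 to 0.15 (Ptgs1, average), -0.39 to 0.81 (Ptgs2, WT NAc), -0.039 to 0.067 (Ptges), -0.31 to 0.20 (Ptges2), -0.87 to 0.080 (Hpgds, TLR-DKO mPFC), -0.74 to 0.22 (Hpgds, WT NAc) and -0.38 to 0.021 (Hpgd, WT NAc). Genotype averages ran from -0.041 to 0.22 (Ptgs1), -0.23 to 0.21 (Ptgs2), -0.058 to 0.047 (Ptges), -0.18 to 0.33 (Ptges2), -0.093 to 0.084 (Ptges3) and -0.073 to 0.083 (Tbxas1), with Hpgds in R-SDS NAc at -0.065 to 0.40. Region averages ran from -0.025 to 0.25 (Ptgs1), -0.15 to 0.38 (Ptgs2) and -0.13 to 0.11 (Hpgd). The Hpgd stress average kept its sign, from -0.73 without WT mPFC R-SDS replicate 2 to -0.41 without replicate 3. Over all genes, the region average called 222 with no slide block and 199 with the replicate block, against 0. The stress average called 3 with slide as a block (8 when the 2 arrays were also left out, 3 with the mean of probes), 6 with normexp and 4 without the 2 arrays, against 0. The genotype average called 8 with slide as a block (3 and 9 with those additions), 2 with quantile normalization, 3 with no filter and 3 without the 2 arrays, against 5. Single pairs called 0 to 3 genes and moved to between 0 and 2 where they moved by over 1.5 times. Signals near background limit Ptger2, Ptger4 and Ptges2.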

Other observations

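Neighbouring genes of the pathway were read from lists chosen with earlier results known, and 0 of them passed the threshold in any comparison. Of genes that release arachidonate or put it back into membranes, 12 of 15 were tested, and 3 of the 12 had a stress average above 0, with a median of -0.11 against 0.04 over all genes. Mgll, which hydrolyses 2-arachidonoylglycerol and so frees arachidonate in the brain, averaged 0.46 after R-SDS and 1.57 in naive mice, a difference of -1.11 ± 0.41 (SE, limma adjusted p = 0.855, unadjusted 0.0132). The slide block gave -0.86 ± 0.34 (SE), and leaving out the 2 arrays that stand apart gave -1.28. Mgll also averaged 1.46 in TLR-DKO and 0.57 in WT microglia, with a difference of 0.88 ± 0.41 (SE, limma adjusted p = 0.592). Lpcat3, which returns arachidonate to phospholipids, averaged 0.89 after R-SDS and 1.62 in naive mice, a difference of -0.73 ± 0.24 (SE, limma adjusted p = 0.796, unadjusted 0.00605) that was -0.72 with slide as a block. Acsl4, which activates arachidonate for that step, had a stress difference of -0.43 ± 0.24 (SE). In the genotype and region averages the list also named Abhd12 (genotype 0.39 ± 0.20, or 0.20 without the 2 arrays), Pla2g15 (region 0.50 ± 0.32) and Pla2g7 (region -1.94 ± 1.27), with Lpcat3 at 0.49 ± 0.24 for genotype and 0.61 ± 0.33 for region (SE).

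Of leukotriene and lipoxygenase genes 7 of 10 were tested, and 5 of 7 had a stress average above 0 (median 0.13, against 0.04 over all genes). Alox5, the lipoxygenase that starts leukotriene synthesis, averaged 0.37 after R-SDS and -0.87 in naive mice, a difference of 1.23 ± 0.63 (SE, limma adjusted p = 0.914), or 1.57 ± 0.60 (SE) with slide as a block (limma adjusted p = 0.607). It was well above background on 23 of 26 arrays. Ltb4r2 (1.1 ± 0.87) and Cysltr1 (0.25 ± 0.28, or 0.04 without the 2 arrays), receptors for leukotrienes, completed the stress average, Ltb4r2, Alox5 and Alox5ap (-0.21 ± 0.19, or -0.13 without the 2 arrays) the genotype average, and Lta4h (-0.79 ± 0.59), Ltc4s (-0.29 ± 0.29) and Alox5ap the region average (SE). Of 18 other prostaglandin genes 14 were tested, and 8 of them lay above 0 for stress (median 0.0069, against 0.04 over all genes). For genotype 6 lay above 0 (median -0.08, against -0.09), and for region 1 (median -0.35, against -0.06). Of the 14, 0 had an unadjusted limma p under 0.05 in any of these averages, and each slide holds 1 region. For all lists the share of all genes above 0 is not given, so these counts are descriptions only. Prxl2b, a prostamide and prostaglandin F synthase, averaged 2.14 after R-SDS and 2.95 in naive mice, a difference of -0.81 ± 0.42 (SE, limma adjusted p = 0.914). Ptger3, the PGE2 receptor that lowers cyclic AMP, averaged -1.21 in NAc and 0.25 in mPFC, with a difference of -1.42 ± 0.76 (SE, limma adjusted p = 0.873) and a stress average of -0.49 that was -0.08 without the 2 arrays. Ptgis, prostacyclin synthase, was well above background on 7 of 26 arrays, with a genotype average of -0.51 ± 0.27 (SE, limma adjusted p = 0.638) and a stress average of 0.26 that was 0.10 without the 2 arrays. The other genes named were Akr1b3 (genotype 0.40 ± 0.28), Slco2a1 (genotype -0.27 ± 0.19), Slco3a1 (region -0.45 ± 0.24) and Tbxa2r (region -0.49 ± 0.28, SE). Ptgfr, Ptgir, Faah and Alox15 were not well above background on any array.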
